A study of Rattus norvegicus with 12 samples.

Results

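The hypoxia-inducible factors (HIF), the enzymes that regulate them and their well-known target genes were followed in the small intestine of Belgrade rats. The set was a list of 38 genes. A gene was kept when a probe set of the array carried its symbol as the only symbol in the platform annotation and its scaled signal, averaged over the 12 arrays, reached 100. This kept 36 genes of the 10067 genes tested, with 47 of the set's 58 probe sets. Of the 36 genes, 30 were targets and 6 were HIF subunits or regulators. The dropped members were Arnt, whose single probe set had a mean signal of 59.4, and Ak4, a mitochondrial adenylate kinase, with 17.8 and 14.4 on its 2 probe sets. Among the 36 kept genes, Adm was the only member with a group mean under 100 on its kept probe set (88.0 in the +/b jejunum).

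Belgrade rats have a recessive allele, b, of Slc11a2, which encodes the iron transporter DMT1, and homozygotes are known to be iron-deficient and anaemic. Homozygous rats (b/b) were compared with heterozygous rats (+/b), so the comparison animals also carry 1 mutant allele. The titles of the comparison arrays read "+b" for the duodenum and "+/b" for the jejunum, and both were taken as the heterozygote. RNA came from scrapes of the duodenum and of the jejunum, which hold every cell type of the scraped layer, and the labels give no age, sex or diet. Each genotype had 3 groups of rats, and each rat group gave 1 array per segment, which makes 4 groups of 3 arrays (+/b duodenum, b/b duodenum, +/b jejunum and b/b jejunum). The replicate is thus a rat group of unstated size.

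HIF is a heterodimer of an oxygen-regulated alpha subunit (HIF-1 alpha, encoded by Hif1a, or HIF-2 alpha, encoded by Epas1) and the constitutive partner ARNT. With oxygen and iron present, prolyl hydroxylases (Egln1, Egln2 and Egln3) mark the alpha subunit for ubiquitination by the von Hippel-Lindau protein (Vhl), while under low oxygen or low iron it escapes degradation and drives target genes through a short DNA core. Much of this control acts on the protein, which arrays do not measure, and in the gut HIF-2 is known for driving genes of apical iron uptake.

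The promoters shown are those of the genes of smallest duodenal p-value on any kept probe set, among genes with a sequence entry. They hold from 0 to 3 copies of the HIF core. The sequences are RefSeq's, on build GRCr8, and give the 250 bases before the annotated start, 5′ to 3′ on the gene's strand. Capitals mark ACGTG or GCGTG, or their reverse complements, and overlapping matches were counted once.
Egln3 (chr6:77411016-77411265, minus strand): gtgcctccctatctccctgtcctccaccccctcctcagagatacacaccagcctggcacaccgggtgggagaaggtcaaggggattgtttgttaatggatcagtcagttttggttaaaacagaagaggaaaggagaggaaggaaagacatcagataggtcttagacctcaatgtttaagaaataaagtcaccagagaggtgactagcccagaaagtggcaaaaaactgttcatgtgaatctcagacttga
Higd1a (chr8:130400889-130401138, minus strand): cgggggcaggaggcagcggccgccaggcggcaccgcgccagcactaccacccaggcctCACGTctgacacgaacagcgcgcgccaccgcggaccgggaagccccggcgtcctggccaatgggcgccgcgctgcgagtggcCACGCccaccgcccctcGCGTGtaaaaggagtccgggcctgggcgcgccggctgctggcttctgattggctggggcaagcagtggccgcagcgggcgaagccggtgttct
Ankrd37 (chr16:53001257-53001506, plus strand): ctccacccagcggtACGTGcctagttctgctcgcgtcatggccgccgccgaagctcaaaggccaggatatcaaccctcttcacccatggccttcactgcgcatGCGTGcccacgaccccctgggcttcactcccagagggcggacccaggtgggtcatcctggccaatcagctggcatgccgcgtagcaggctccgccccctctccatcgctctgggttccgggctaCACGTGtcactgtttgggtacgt
Hif1a (chr6:98359648-98359897, plus strand): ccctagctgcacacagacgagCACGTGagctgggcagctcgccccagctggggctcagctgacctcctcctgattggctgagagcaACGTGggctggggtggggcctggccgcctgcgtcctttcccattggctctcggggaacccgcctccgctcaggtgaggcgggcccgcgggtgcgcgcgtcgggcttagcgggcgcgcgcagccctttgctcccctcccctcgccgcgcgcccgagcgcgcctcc

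The Egln3 window held 0 matches, Higd1a held 3 (first bases from -192 to -93), Ankrd37 held 3 (from -236 to -23) and Hif1a held 2 (at -229 and -164). Entries were found for 34 of the 38 genes, and those for Bnip3l, Ndrg1, Pgk1 and Ero1a were missing. Over windows of 300 bases, which add the first 50 transcribed bases, 25 of the 34 genes held a match on either strand. By window, 65.0% of the 40 member windows held a match, against 41.6% of all 33469 windows. The stricter ACGTG stood in 52.5% of member windows and in 19.3% of all windows. Member windows were also richer in G and C, with a median GC content of 65.8% against 51.7%, and its part in these shares was not tested. A match describes the letters only.

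Signals were deposited per probe set. The 2% trimmed mean was 500.2 on 10 arrays but 51.6 and 126.6 on the arrays of +/b duodenum replicates 2 and 3, and all 12 were brought to 500. All directions below refer to the scaled arrays. In the segment comparison of +/b rats, the median change of all probe sets was 1.60 on the log2 scale without scaling and 0.05 with it. The number of arrays limits the precision. Scaled arrays had median signals from 108 to 181. Replicate 1 of b/b duodenum was the least like the rest, with a median rank correlation of 0.837 against 0.876 to 0.918 on the other 11 arrays. The summed signal of 6 enterocyte markers was high on all arrays and moved with the replicate number in every group, from 271723 to 426331 in replicates 1 and from 108740 to 158072 in replicates 3. Of the exocrine pancreas markers, 11 genes summed to 161462 in replicate 2 of +/b duodenum, to 7762 in replicate 3 of b/b duodenum, and to 1187 to 1964 on the other arrays. The Belgrade mutation is known as an amino acid substitution, so transcript levels of Slc11a2 are no check on the labels.

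In the duodenum no member passed the test between genotypes, while signals of several target genes were higher in b/b rats. Changes are differences of log2(scaled signal + 16), with the standard error (SE) of the limma fit, 3 arrays per group, and Benjamini-Hochberg adjustment over 17694 probe sets. A probe set is called at an adjusted p under 0.05. Of the 47 member probe sets, 0 were called, where 0.0396% of all probe sets were called (7 in number). At an unadjusted p under 0.05 there were 12 (25.5%), against 6.17% of all probe sets. Of these, 10 were higher in b/b rats (21.3%, against 2.5% of all) and 2 were lower (4.26%, against 3.67%). The 10 belonged to Ankrd37, Bnip3, Bnip3l, Car9, Egln3, Epas1, P4ha1 and the dimmer probe sets of Higd1a and Pgk1. The 2 belonged to Hif1a and the dimmer probe set of Pfkfb4. On the brightest probe set of each gene, 7 of the 36 genes were higher at this threshold and 1 was lower. The groups of 3 arrays did not overlap for 11 member probe sets (23.4%, against 8.7% of all), 10 with b/b above +/b (against 3.18%) and 1 below (against 5.53%).

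Taking the brightest probe set of each gene, the median change of the 36 members in the duodenum was 0.20, and 30 of the 36 lay above 0. Over all 10067 genes the median was -0.03, and 45.8% lay above 0. The count of 12 depended on single arrays. It was 7 without b/b duodenum replicate 2, 8 without replicate 3 and 15 without replicate 1, and 6 without both arrays that were deposited unscaled.

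**Figure D1:**
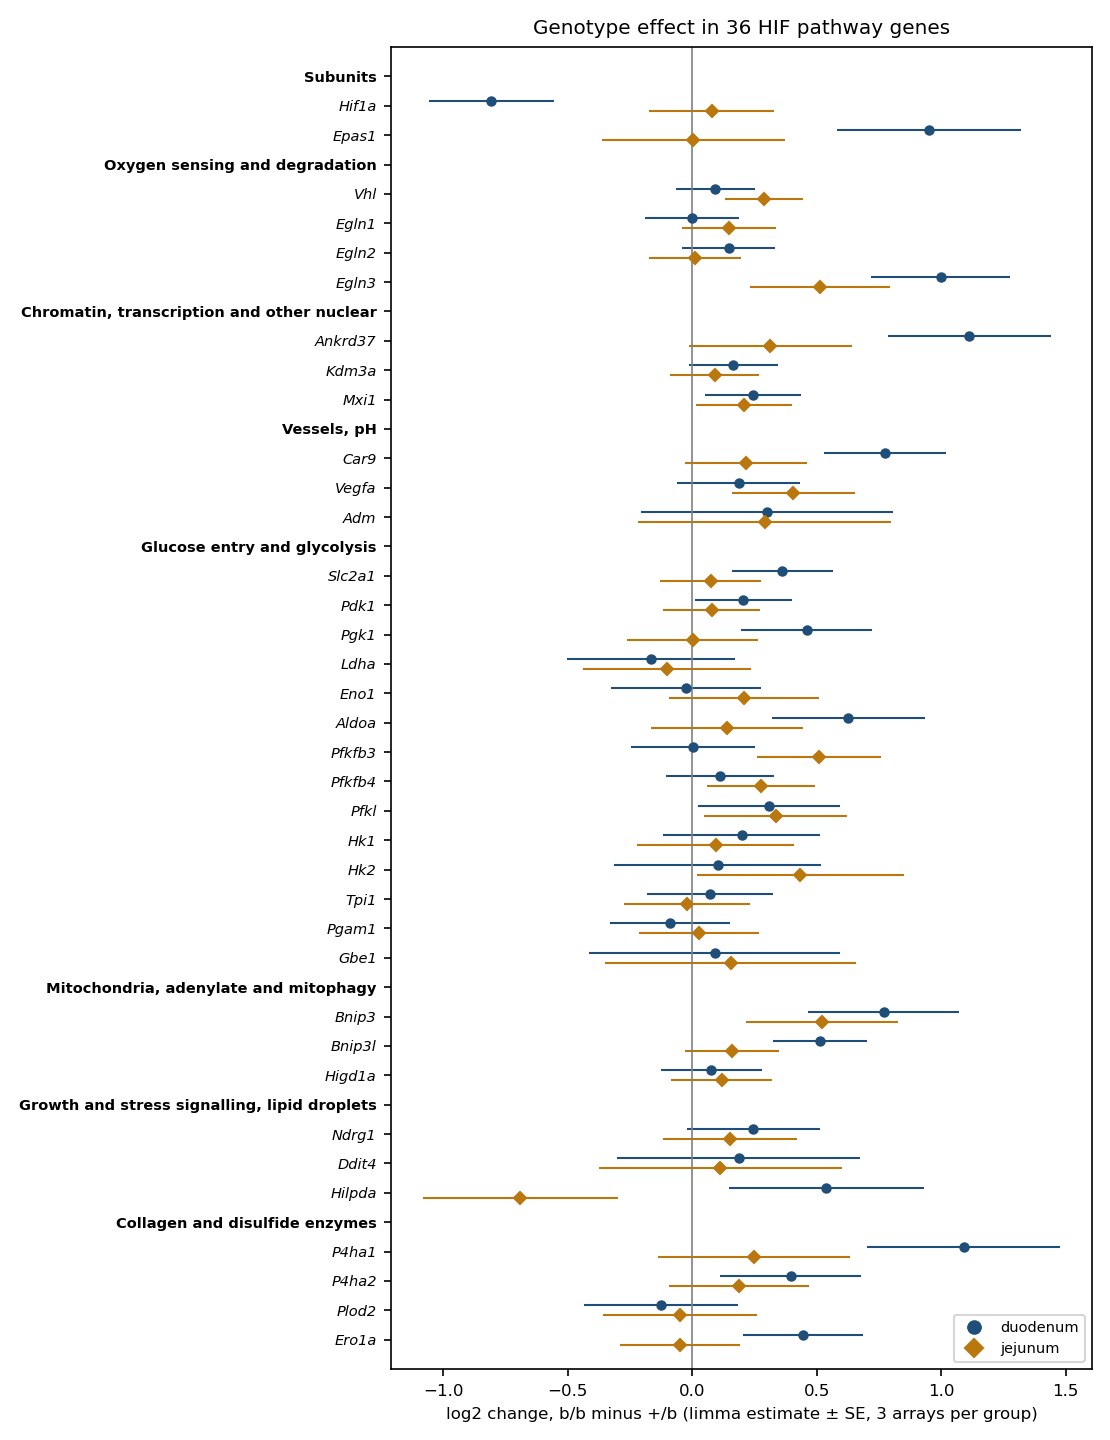
Change between genotypes (b/b minus +/b, log2 scale, estimate ± SE, 3 arrays per group) of the brightest probe set of each of the 36 kept genes, in the duodenum (circles) and the jejunum (diamonds), ordered by role. Most points lie right of 0 in both segments (30 and 31 of 36), and Hif1a lies left of 0 in the duodenum at -0.81. Without scaling of the arrays Hif1a was at 0.92, where all probe sets had a median of 1.51.

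Among the subunits, the signals of Hif1a and Epas1 differed in opposite directions in the duodenum. Hif1a had signals of 2098, 3027 and 4169.5 on the +/b duodenum arrays and of 1591, 1751 and 1756 on the b/b duodenum arrays. All 3 b/b arrays lay below all 3 +/b arrays. The change was -0.81 ± 0.25 (limma adjusted p = 0.702), and without scaling it was 0.92, where all probe sets had a median of 1.51. In the jejunum the signals were 2515, 3722 and 4269 in +/b and 3162, 3545 and 4187 in b/b rats, overlapping groups with a change of 0.08 ± 0.25 (limma adjusted p = 1).

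Epas1 had duodenal signals of 5362, 2447 and 3316 in +/b and 5114, 7523 and 8229 in b/b rats. The groups overlapped through +/b replicate 1, which lay above b/b replicate 1. The change was 0.95 ± 0.37 (limma adjusted p = 0.789), and the dimmer of the 2 Epas1 probe sets gave 0.47 ± 0.48. In the jejunum Epas1 stood at 2084, 943 and 1924 in +/b and 1751, 981 and 2223 in b/b rats, overlapping groups with a change of 0.00 ± 0.37. Arnt, the common partner, was near the array's background with signals from 8.85 to 123 over the 12 arrays, and was not tested.

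Among the regulators, Egln3, the prolyl hydroxylase that is itself induced by HIF, had the smallest p-value of the set in the duodenum. Its signals were 1291, 1913 and 1413 in +/b and 1848, 4023 and 3791 in b/b duodenum. Replicates 2 and 3 of b/b lay above every +/b array, and b/b replicate 1 lay below +/b replicate 2, so the groups overlapped. The change was 1.00 ± 0.28 (limma adjusted p = 0.66), from 0.80 without b/b duodenum replicate 2 to 1.36 without replicate 1. In the jejunum Egln3 had 1017, 1276 and 1199 in +/b and 1404, 1522 and 2141 in b/b rats. These groups did not overlap, with a change of 0.51 ± 0.28 (limma adjusted p = 1).

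The other regulators had duodenal changes of at most 0.15. Vhl, the substrate receptor of the ubiquitin ligase, had 1522, 1504 and 1346 in +/b and 1623, 1517 and 1519 in b/b duodenum, and the change was 0.09 ± 0.16. In the jejunum Vhl had 1837, 1568 and 1429 in +/b and 2029, 1933 and 1920.4 in b/b rats, with every b/b array higher and a change of 0.29 ± 0.16 (limma adjusted p = 1).

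Egln1, the main hydroxylase of HIF-1 alpha, had 899.9, 1090.3 and 753 in +/b and 760.3, 970.8 and 998 in b/b duodenum, overlapping groups with a change of -0.00 ± 0.19. Its jejunal signals were 939, 814 and 985 in +/b and 1019.9, 1006 and 1001 in b/b rats, higher in each b/b array by a change of 0.15 ± 0.19. Egln2, a further HIF prolyl hydroxylase, had 1285, 1871 and 1547 in +/b and 1445, 1694 and 2063 in b/b duodenum. Its jejunal signals were 1682, 1575 and 1551 in +/b and 1540.2, 1598 and 1705 in b/b rats. Both segments overlapped for Egln2, with changes of 0.15 ± 0.19 and 0.01 ± 0.19.

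Of the targets, the genes of mitochondria and mitophagy had the highest median of the role groups in the duodenum (0.51 over 3 genes). Higd1a, a mitochondrial inner membrane protein, had signals of 472, 588 and 453 in +/b and 700.0, 974 and 772 in b/b duodenum on its dimmer probe set. All b/b arrays were higher, and the change was 0.67 ± 0.20 (limma adjusted p = 0.66). The brighter Higd1a probe set gave 0.08 ± 0.20 with overlapping groups, so the probe sets differ in size. In the jejunum the dimmer Higd1a probe set had 514, 558 and 464 in +/b and 555, 625 and 549.7 in b/b rats, and those groups overlapped.

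Bnip3 and Bnip3l, receptors for the removal of mitochondria, had changes of 0.77 ± 0.30 and 0.51 ± 0.19 in the duodenum (limma adjusted p = 0.789 and 0.788). Bnip3 had 227, 284 and 455 in +/b and 377, 596 and 689 in b/b duodenum, and +/b replicate 3 lay above b/b replicate 1. In the jejunum Bnip3 had 316, 311 and 466 in +/b and 438, 473 and 678 in b/b rats, again overlapping through +/b replicate 3, with a change of 0.52 ± 0.30. Bnip3l, which is also abundant in reticulocytes, had 3932, 4912 and 3331 in +/b and 5461, 6960.1 and 4935 in b/b duodenum on its brighter probe set. Those groups did not overlap. Markers of blood and reticulocytes (3 of 9 kept) had a higher summed signal in b/b rats in both segments. In the duodenum all 3 lay above 0 and 1 was called higher (0.0396% of all probe sets were). In the jejunum 2 of the 3 lay above 0 and 2 were called higher (0.0339% of all). The summed signal of these markers was 1899 to 3507 in +/b and 12414 to 17530 in b/b duodenum. In the jejunum it was 1943 to 2995 in +/b and 10081 to 14174 in b/b rats. The part of these markers in the Bnip3l values was not tested.

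Among the glycolytic genes, the median change in the duodenum was 0.11 over 14 genes, with 11 above 0 and 0 called. Pgk1, phosphoglycerate kinase, had the smallest p-value among them. On its dimmer kept probe set it had 11720, 7817 and 10617 in +/b and 14934, 18299 and 16231 in b/b duodenum, with no overlap and a change of 0.73 ± 0.21 (limma adjusted p = 0.66). Its brighter probe set gave 0.46 ± 0.26 with overlapping groups. In the jejunum the dimmer Pgk1 probe set had 8622, 7796.5 and 7433 in +/b and 11279.6, 8106 and 9151 in b/b rats, overlapping through +/b replicate 1. Slc2a1, the glucose transporter GLUT1, had 373, 414 and 315 in +/b and 495, 503 and 425 in b/b duodenum. The Slc2a1 groups did not overlap, and the change was 0.36 ± 0.20.

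Aldoa, an aldolase, had a change of 0.63 ± 0.31 with overlapping groups. Ldha (lactate dehydrogenase A), Eno1 (an enolase) and Pgam1 (phosphoglycerate mutase) lay just below 0, at -0.17 ± 0.34, -0.03 ± 0.30 and -0.09 ± 0.24. Pfkfb4, a regulator of phosphofructokinase, differed by probe set, with -0.61 ± 0.27 on the dimmer and 0.11 ± 0.22 on the brighter. The dimmer Pfkfb4 probe set had 974, 1142 and 962 in +/b and 1014, 727 and 398 in b/b duodenum. Replicate 1 of b/b lay among the +/b arrays, and the other b/b arrays lay below them. Mxi1 and Vegfa also had probe sets of opposite sign in the duodenum, while for 8 of the 11 genes with several kept probe sets the signs matched. The remaining glycolytic changes, of Pdk1, Pfkfb3, Pfkl, Hk1, Hk2, Tpi1 and Gbe1, lay between 0.00 and 0.31.

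Of the targets for vessels and pH, Car9, a membrane carbonic anhydrase that is a standard hypoxia marker, had 1937, 1626 and 1951 in +/b and 1969, 4109 and 3832 in b/b duodenum. The groups did not overlap, although b/b replicate 1 lay close to the highest +/b array. The change was 0.77 ± 0.25 (limma adjusted p = 0.704). In the jejunum Car9 had 736, 702 and 568 in +/b and 742, 836 and 746 in b/b rats, also without overlap, with a change of 0.21 ± 0.25. Vegfa, the endothelial growth factor, had 0.19 ± 0.25 on its brighter and -0.28 ± 0.31 on its dimmer probe set in the duodenum, and Adm, adrenomedullin, had 0.30 ± 0.51.

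Of the other targets, Ankrd37, a small ankyrin-repeat protein, had the largest duodenal change of the set. Its signals were 198, 254 and 128 in +/b and 272, 444 and 616 in b/b duodenum, with no overlap and a change of 1.11 ± 0.33 (limma adjusted p = 0.66). P4ha1, a subunit of collagen prolyl 4-hydroxylase, had 279, 102 and 170.0 in +/b and 288, 377 and 507 in b/b duodenum. The lowest b/b array lay just above the highest +/b array, and the change was 1.09 ± 0.39 (limma adjusted p = 0.776). Hilpda, a lipid droplet protein, P4ha2 and the dimmer probe set of the disulfide oxidase Ero1a also did not overlap, at 0.54 ± 0.39, 0.39 ± 0.28 and 0.44 ± 0.23. Hilpda had 125, 102 and 93.6 in +/b and 215, 130.4 and 148 in b/b duodenum, so that the lowest b/b array lay close to the highest +/b array. The histone demethylase Kdm3a, Mxi1, Ndrg1, Ddit4 and the lysyl hydroxylase Plod2 lay between -0.13 and 0.25 on their brightest probe sets, with overlapping groups.

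**Figure D2:**
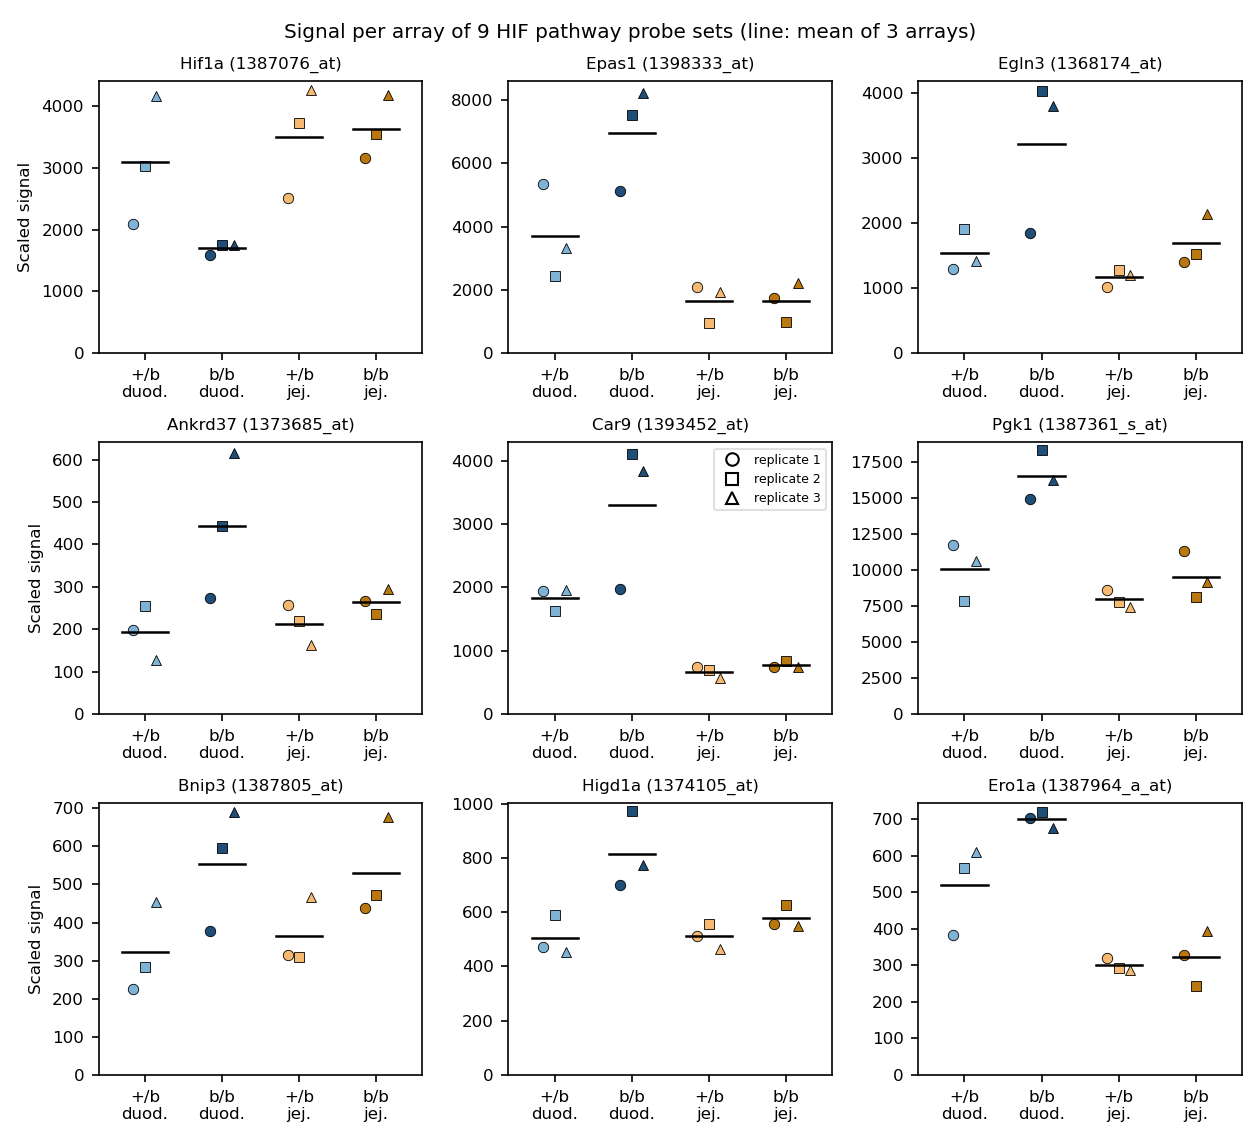
Scaled signal on each of the 12 arrays for 9 member probe sets, by group, with the replicate number as the symbol and the mean of 3 arrays as a line. In the duodenum the b/b arrays of Ankrd37 (272 to 616) lie above the +/b arrays (128 to 254), and those of Hif1a (1591 to 1756) lie below (2098 to 4169.5) on these scaled arrays. Without scaling the Hif1a change was 0.92, where all probe sets had a median of 1.51.

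The duodenal differences came with lower signals of crypt markers in b/b rats. Their summed signal (4 of 6 kept) was 2585 to 5138 in +/b and 1559 to 2232 in b/b duodenum, and their median change was -0.998, with 0 of the 4 above 0. The 7 cell cycle genes had a median of -0.54, with summed signals of 4983 to 8918 and 4999 to 9381. Endothelial markers (5 of 8 kept) had a median of 0.12, with sums of 645 to 1439 and 641 to 1375. The 6 smooth muscle markers had a median of -0.32 with 0 of 6 above 0, and sums of 2307 to 3670.24 in +/b and 1929.91 to 2364 in b/b duodenum. The 6 enterocyte markers had a median of -0.24, also with 0 of 6 above 0, and sums of 158072 to 313068 and 113731 to 426331. The exocrine pancreas markers (11 of 12 kept) had a median of -1.07 with 0 of 11 above 0. Their sums were 1187 to 161462 in +/b and 1363 to 7762 in b/b duodenum. None of these lists had a called probe set in this contrast. Their part in the member values was not tested, and in scrapes fewer cells of a type and less RNA per cell cannot be told apart.

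In the jejunum no member passed the test between genotypes either. Of the 47 probe sets 0 were called by limma, where 0.0339% of all were, and 0 had an unadjusted p under 0.05, against 1.34% of all. The groups did not overlap for 7 (14.9%, against 7.9% of all), and in all 7 b/b was higher (against 3.35%), with 0 lower (against 4.54%). They belonged to Bnip3l, Car9, Egln1, Egln3, Pfkfb4, Vegfa and Vhl. The median change of the 36 genes was 0.15, with 31 above 0, against -0.04 and 43.4% over all genes. Crypt markers had lower summed signals here too, with a median of -0.60, 0 of 4 above 0 and 0 called. Their summed signal was 4478 to 7261 in +/b and 3023 to 4397 in b/b jejunum, and their part in the member values was not tested.

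The smallest jejunal p-value belonged to Pfkfb3, which makes an activator of phosphofructokinase. Its signals were 295, 413 and 609 in +/b and 562, 725 and 546 in b/b jejunum, overlapping through +/b replicate 3, with a change of 0.51 ± 0.25 (limma adjusted p = 1). Hilpda had the most negative jejunal change. It had 207, 145 and 202 in +/b and 55.8, 166 and 125 in b/b jejunum, overlapping groups with a change of -0.69 ± 0.39. Both values moved with single arrays, Pfkfb3 to 0.26 without +/b jejunum replicate 1 and to 0.77 without replicate 3, and Hilpda to -0.30 without b/b jejunum replicate 1 and to -0.98 without replicate 2. Ankrd37 and P4ha1, the largest in the duodenum, stood at 0.31 ± 0.33 and 0.25 ± 0.39. Ankrd37 had 256, 219 and 164 in +/b and 265, 236 and 295 in b/b jejunum, overlapping groups. The dimmer Pfkfb4 probe set had 847, 828 and 657 in +/b and 1165, 882 and 1042 in b/b jejunum. Every b/b array was higher, with a change of 0.40 ± 0.27.

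Averaging the 2 segments of each rat group (3 rat groups against 3), 0 of 47 member probe sets were called by limma, where 0.0396% of all were. At an unadjusted p under 0.05 there were 6 (12.8%, against 2.83% of all), all 6 higher in b/b rats (against 1.15%) and 0 lower (against 1.68%). They belonged to Egln3 (0.76 ± 0.23), Ankrd37 (0.71 ± 0.27), Bnip3 (0.64 ± 0.26), Car9 (0.49 ± 0.19) and the dimmer probe sets of Pgk1 (0.49 ± 0.19) and Higd1a (0.42 ± 0.18), each with a limma adjusted p of 1. The brighter probe sets of Pgk1 and Higd1a gave 0.23 ± 0.25 and 0.10 ± 0.20. The count ran from 2 to 8 when each rat group was left out in turn. The rat groups did not overlap for 10 probe sets (21.3%, against 8.17% of all), all higher in b/b (against 2.91%). The median change was 0.20, with 31 of 36 above 0.

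**Figure D3:**
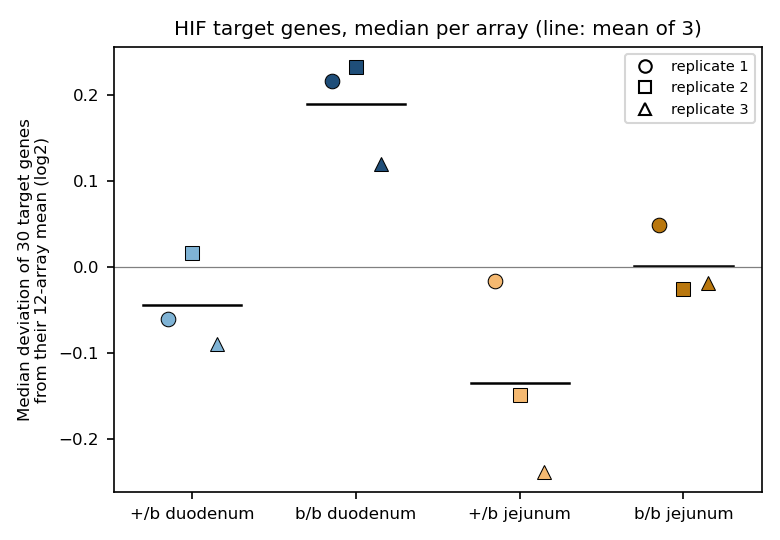
Median over the 30 kept target genes of their deviation from their own 12-array mean (log2 scale), for each array, with the mean of 3 arrays as a line. The b/b duodenum arrays (0.12 to 0.23) lie above the +/b duodenum arrays (-0.09 to 0.02), while the jejunum groups overlap.

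The per-array median of the 30 targets was -0.06, 0.02 and -0.09 in +/b and 0.22, 0.23 and 0.12 in b/b duodenum. In the jejunum it was -0.02, -0.15 and -0.24 in +/b and 0.05, -0.03 and -0.02 in b/b rats. The duodenum groups did not overlap, and in the jejunum +/b replicate 1 lay among the b/b arrays.

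Whether the genotype change differed between segments was tested directly (the interaction, jejunum minus duodenum). By limma 0 of 47 were called, as were 0 of all probe sets (0%). At an unadjusted p under 0.05 there were 3 (6.38%, against 1.73% of all), 2 of them with a higher (against 1.01%) and 1 with a lower change (against 0.723%). They were the dimmer Pfkfb4 probe set (1.01 ± 0.39), Hif1a (0.88 ± 0.35) and Hilpda (-1.23 ± 0.55), each with a limma adjusted p of 1. Without scaling, Pfkfb4 turned to -0.67 and Hif1a to -0.84, where all probe sets had a median of -1.55. The next were Epas1 (-0.95 ± 0.52) and the dimmer Higd1a probe set (-0.50 ± 0.28). The count ran from 1 to 9 as single arrays were left out, with 9 without b/b duodenum replicate 1. With the rat group as a block, Hif1a kept its 0.88 with an SE of 0.19 (limma adjusted p = 0.812), and 0 members were called. The median interaction of the 36 genes was -0.08, against -0.00 over all genes, and ran from -0.14 without b/b duodenum replicate 3 to -0.04 without +/b duodenum replicate 1.

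Along the intestine, Car9, Epas1 and Ero1a passed the test in b/b rats. In b/b rats 3 of 47 probe sets were called by limma, 1 for each of these genes, and all 3 fell from duodenum to jejunum (6.38%, against 0.763% called among all probe sets and 0.418% called lower). These comparisons use the same b/b duodenum arrays as the duodenal genotype comparison. At an unadjusted p under 0.05 there were 13 (27.7%, against 9.77% of all), 10 lower in the jejunum (against 3.5%) and 3 higher (against 6.26%). The groups did not overlap for 16 (34%, against 14.8% of all), 11 lower (against 5.3%) and 5 higher (against 9.53%). The median change of the 36 genes was -0.15, with 12 above 0, against 0.06 and 57% over all genes.

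Car9 fell from 1969, 4109 and 3832 in the b/b duodenum to 742, 836 and 746 in the b/b jejunum. Every jejunum array lay below every duodenum array, with a change of -2.00 ± 0.25 (limma adjusted p = 0.00112). Car9 was called without each of the 6 arrays in turn (limma adjusted p from 4.49e-05 to 0.0118). In +/b rats, Car9 had a change of -1.44 ± 0.25 (limma adjusted p = 0.0666), also without overlap. It turned to 0.26 without scaling, where all probe sets had a median of 1.60. With the rat group as a block, Car9 was the 1 member called in +/b rats (adjusted p = 0.00962 in limma; 0.486% of all probe sets were called).

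Epas1 fell from 5114, 7523 and 8229 in the b/b duodenum to 1751, 981 and 2223 in the b/b jejunum. The groups did not overlap, and the change was -2.11 ± 0.37, a 4.32-fold decrease (limma adjusted p = 0.0153). The call was lost without b/b duodenum replicate 2 or 3 or b/b jejunum replicate 2 (limma adjusted p = 0.0989, 0.0784 and 0.101). It was also lost when arrays were scaled to their medians, with a change of -2.18. The dimmer Epas1 probe set had 742, 513 and 259 in the b/b duodenum and 152, 88.4 and 199 in the b/b jejunum, without overlap and with a change of -1.62 ± 0.48 (limma adjusted p = 0.215). In +/b rats its duodenal signals were 434, 228 and 363 and its jejunal signals 191, 67.9 and 46.2, again with every jejunum array lower. In +/b rats the 2 probe sets had -1.17 ± 0.37 and -1.76 ± 0.48 without overlap (limma adjusted p = 0.693 and 0.456). The brighter turned to 0.55 without scaling, where all probe sets had a median of 1.60. HIF-2 alpha is known in endothelium as well as in epithelium. From duodenum to jejunum the 5 endothelial markers had medians of 0.28 (b/b, 4 of 5 above 0) and 0.33 (+/b, 3 of 5), with 0 called. Their summed signals overlapped, at 641 to 1375 and 591 to 1824 in b/b and at 645 to 1439 and 917 to 1414 in +/b rats. Their part in the Epas1 change was not tested.

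The dimmer probe set of Ero1a fell from 704, 719 and 675 in the b/b duodenum to 328, 245 and 394 in the b/b jejunum, without overlap. The change was -1.10 ± 0.23 (limma adjusted p = 0.0425), and the call was lost without any 1 of the 6 arrays (adjusted p from 0.0569 to 0.263) with scaling to array medians and without the filter on low signals. The brighter Ero1a probe set had 1951, 3107 and 3605 in the b/b duodenum and 1636, 1047 and 1634 in the b/b jejunum. These did not overlap either, with a change of -0.98 ± 0.24 (limma adjusted p = 0.108). In +/b rats the dimmer had duodenal signals of 383, 566 and 609.9 and jejunal signals of 319, 293 and 289. Those groups did not overlap, and the change was -0.74 ± 0.23. It turned to 0.88 without scaling, where all probe sets had a median of 1.60.

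Hif1a had the opposite sign to Epas1. Its signals were 1591, 1751 and 1756 in the b/b duodenum and 3162, 3545 and 4187 in the b/b jejunum, with no overlap. The change was 1.08 ± 0.25 (limma adjusted p = 0.0797) in b/b rats and 0.20 ± 0.25 with overlapping groups in +/b rats. Segments of 1 rat group are paired by design. With the rat group as a block, 7 member probe sets passed in b/b rats (14.9%, against 2.44% of all), Hif1a among them (limma adjusted p = 0.00149). The others were Car9, Epas1, both probe sets of Ero1a (limma adjusted p = 0.0307 and 0.0336), Egln3 (adjusted p = 0.0336 in limma, change -0.87 ± 0.19) and the dimmer Pgk1 (adjusted p = 0.0244 in limma, change -0.80 ± 0.16). Without the block, Egln3 and Pgk1 had a limma adjusted p of 0.27 and 0.133.

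In +/b rats 0 of 47 member probe sets were called between segments, where 0.0565% of all were (0.0226% higher and 0.0339% lower). At an unadjusted p under 0.05 there were 6 (12.8%, against 5.36% of all), 5 lower in the jejunum (against 2.07%) and 1 higher (against 3.29%), P4ha2 (0.73 ± 0.28). The groups did not overlap for 11 (23.4%, against 10.8% of all), 9 lower (against 4.71%) and 2 higher (against 6.1%). Besides Car9, Epas1 and Ero1a, the lower ones at an unadjusted p under 0.05 included the brighter Higd1a probe set (-0.57 ± 0.20). Without scaling its change was 1.18, where all probe sets had a median of 1.60. Its signals were 13768, 16830.4 and 12490.1 in the +/b duodenum and 9792, 10412 and 8693 in the +/b jejunum. Every jejunum array was lower on the scaled arrays, and that Higd1a probe set had -0.53 ± 0.20 in b/b rats. The dimmer Higd1a probe set had the opposite sign in +/b rats, with mean signals of 505 in the duodenum and 512 in the jejunum. In b/b rats both Higd1a probe sets were lower in the jejunum.

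By role, each gene was taken on its brightest probe set. All 3 genes for vessels and pH lay below 0 from duodenum to jejunum in both genotypes of the scaled arrays. Their median was -0.74 in +/b and -0.75 in b/b rats. The dimmer Vegfa probe set had the opposite sign in b/b rats, with mean signals of 403 in the duodenum and 489 in the jejunum. Of the 14 glycolytic genes, 10 lay below 0 in each genotype, with medians of -0.14 and -0.15 and 0 called. Vhl had 0.14 ± 0.16 and 0.33 ± 0.16, Egln1 0.01 ± 0.19 and 0.16 ± 0.19, and Egln2 0.05 ± 0.19 and -0.09 ± 0.19 in +/b and b/b rats. Crypt markers moved with segment. Their median was 1.14 in b/b rats, with all 4 above 0 and 0 called, and their summed signal was 1559 to 2232 in the duodenum and 3023 to 4397 in the jejunum. In +/b rats the median was 0.56, also with 4 of 4 above 0, and the sums overlapped (2585 to 5138 and 4478 to 7261). The 7 cell cycle genes had a median of 0.77 in b/b rats, with 6 of 7 above 0. Of their 9 probe sets 1 was called higher, that of Top2a (against 0.345% of all probe sets). Their sums overlapped at 4999 to 9381 in the duodenum and 5289.85 to 9508.5 in the jejunum. In +/b rats their median was 0.47, with 7 of 7 above 0, 0 called and sums of 4983 to 8918 and 7484 to 11979. The exocrine pancreas markers (11 of 12 kept) had medians of -2.80 in +/b and -1.07 in b/b rats, with 0 of 11 above 0 and 0 called in each genotype. The part of these lists in the segment changes was not tested.

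**Figure D4:**
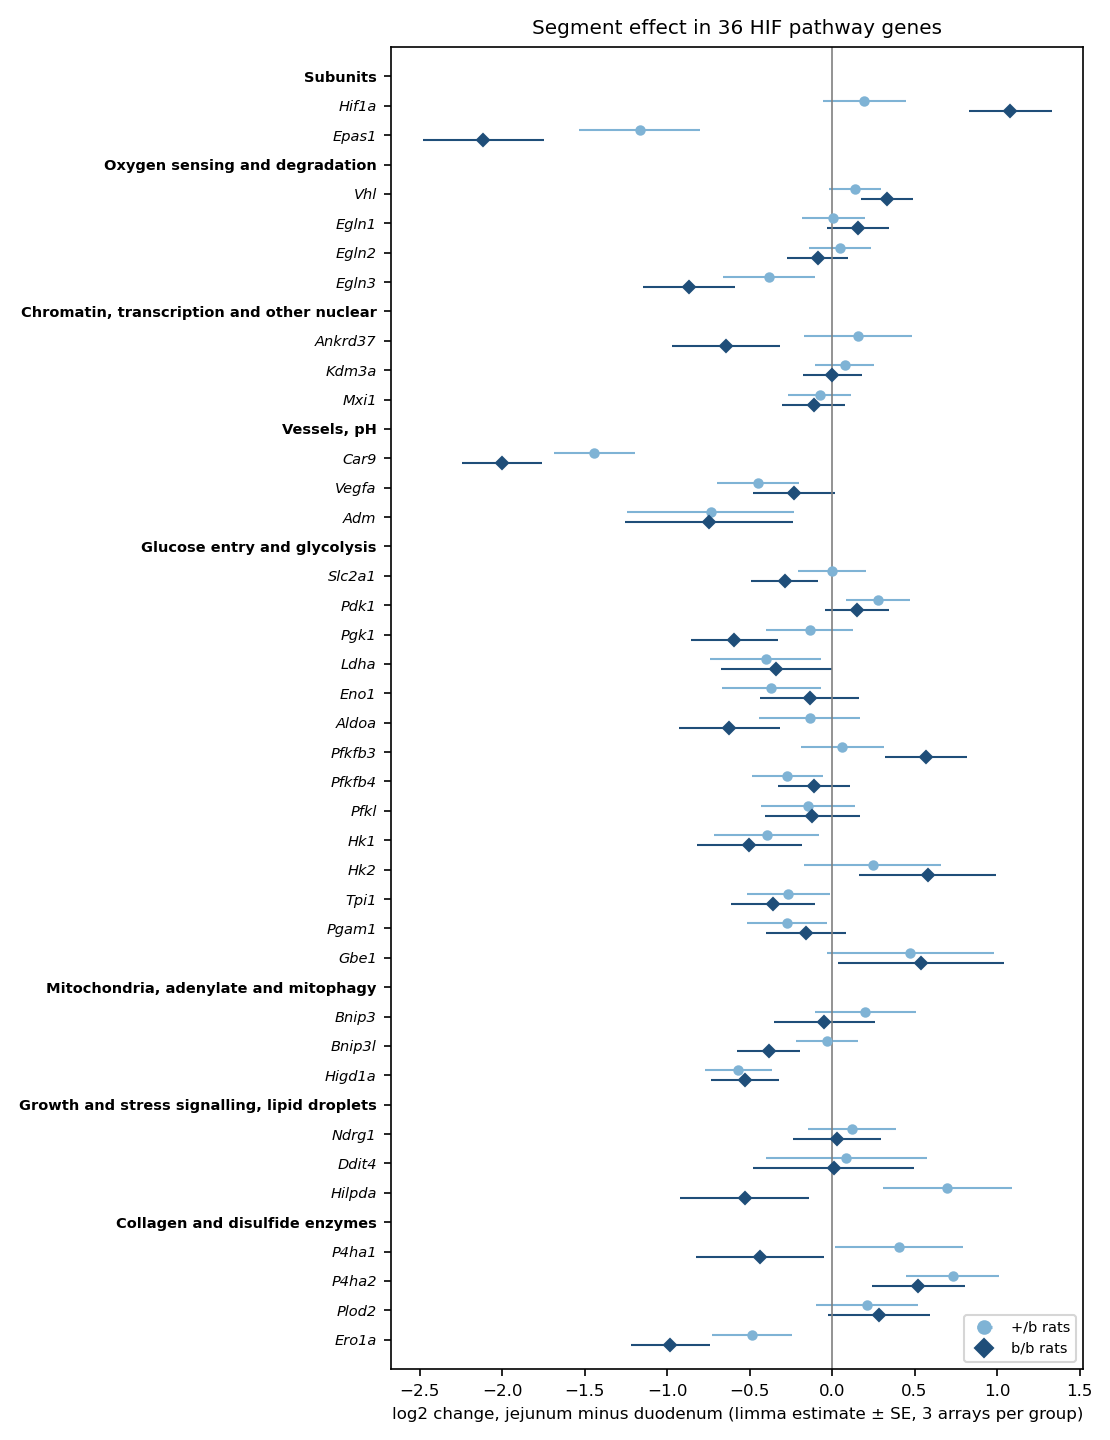
Change between segments (jejunum minus duodenum, log2 scale, estimate ± SE, 3 arrays per group) of the brightest probe set of each of the 36 kept genes, in +/b (circles) and b/b rats (diamonds), ordered by role. Car9 (-2.00) and Epas1 (-2.11) lie farthest left in b/b rats and Hif1a (1.08) farthest right. Without scaling, the +/b values of Car9 and Epas1 turned to 0.26 and 0.55, where all probe sets had a median of 1.60.

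Further regulators and further targets of the pathway, on lists that hold no member, had calls among the targets in the b/b segment contrast and 0 calls in the other contrasts. Of 20 further regulators and cofactors, 16 were kept, and 0 of their 26 probe sets were called in any of the 6 contrasts. At an unadjusted p under 0.05 there were 0, except 2 higher in the +/b segment contrast (against 3.29% of all probe sets). Of 58 further targets, 36 were kept, with 47 probe sets. In the duodenum 0 were called (against 0.0396% of all probe sets). At an unadjusted p under 0.05, 1 was higher (against 2.5% of all) and 5 were lower in b/b rats (against 3.67%). The median was -0.09 with 14 of 36 above 0. The 1 higher was Bhlhe40, a transcriptional repressor (0.74 ± 0.29). The smallest p-value belonged to Angptl4, an inhibitor of lipoprotein lipase.

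Angptl4 had 618, 962 and 1158 in +/b and 245, 517 and 493 in b/b duodenum, with every b/b array lower and a change of -1.12 ± 0.29 (limma adjusted p = 0.657). In b/b rats Angptl4 rose from duodenum to jejunum, to 1771, 1232 and 1394, by 1.82 ± 0.29 (limma adjusted p = 0.00908). Both probe sets of Abcb1a, a drug efflux pump, rose too, by 1.65 ± 0.30 and 1.59 ± 0.32 (limma adjusted p = 0.0219 and 0.0344). These 3 were the called probe sets of the further targets in that contrast, against 0.345% of all probe sets called higher.

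A list of 9 iron genes linked to HIF was also followed. Whether HIF-2 drives each of them was not tested. Of the 9, 8 were kept, with 15 probe sets. In b/b duodenum 2 probe sets were called higher by limma, of the ferric reductase Cybrd1 and of Slc11a2 (0.0396% of all probe sets were called higher), and 7 had an unadjusted p under 0.05, all higher (2.5% of all). In the jejunum 0 were called by limma, against 0.0339% of all, and 0 had an unadjusted p under 0.05, against 1.34%. The interaction of Cybrd1 was -3.80 ± 0.58 (limma adjusted p = 0.252). From duodenum to jejunum in b/b rats 6 were called lower (0.418% of all), in the same direction as Epas1 and Car9. They were those of Cybrd1 (-5.61 ± 0.41), Slc11a2 (2 probe sets) and the exporter Slc40a1 (3 probe sets). In +/b rats, on the scaled arrays, 1 iron probe set was called lower in the jejunum (0.0339% of all) and 0 were called higher. At an unadjusted p under 0.05, 7 were lower (2.07% of all) and 1 was higher (3.29%) in +/b rats.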

How the data were processed

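The authors deposited linear signal intensities, 1 per probe set, for 12 arrays. MAS5 is named for 10 of them per the submitters' processing notes, and its version is not given in the sources used here. The 31099 probe sets included 57 controls, which were removed. Each array was scaled to a 2% trimmed mean of 500, and the 17694 probe sets whose scaled signal averaged 100 or more were tested. Log2(signal + 16) was fitted with limma 3.58.1 in R 4.3.3 (lmFit, eBayes with trend) over 4 group means, two-sided, at a Benjamini-Hochberg adjusted p of 0.05. The averaged contrast used 6 rat-group means. The pseudocount understates changes of dim genes. Without the block, segment p-values ignore that a rat group gave both segments.

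Same-numbered segments of a genotype come from the same rat group according to the series design, and their deviations correlated by 0.19 to 0.28 (+/b) and 0.16 to 0.38 (b/b). Across genotypes the numbers correlated by 0.12 to 0.42 in the jejunum and -0.06 to 0.16 in the duodenum. Across genotype and segment, which share no rats, it was 0.14 to 0.45 (+/b jejunum with b/b duodenum) and 0.03 to 0.26 (+/b duodenum with b/b jejunum). What the number marks besides the rat group was not tested. As an alternative, the rat group entered segment and interaction fits as a fixed block and genotype fits as a random block (duplicateCorrelation 0.31).

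The members and lists were chosen with earlier results of these data known. Per-array signals are given for the subunits and regulators, and in each contrast for called members and those of the 5 smallest p-values. Some further members were shown after their values were seen. Fits were checked on simulated data. Alternatives covered pseudocount, filter, scaling, array weights, blocks and leaving out arrays.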

Additional observations from a re-analysis of the deposited data

How the results depend on the processing

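The duodenal and jejunal genotype counts of called members stayed at 0 under every rescaled alternative, while the values as deposited called 5 in the duodenum. As deposited, the member medians were 1.82 (duodenum), 0.98 (averaged), -1.70 (interaction) and 1.61 (+/b segment). Single genes also turned sign as deposited: Hif1a to 0.92 in the duodenum, Pfkfb4 to -0.67 and Hif1a to -0.84 in the interaction, and Car9 to 0.26, Ero1a to 0.88, Epas1 to 0.55 and Higd1a to 1.18 in the +/b segment contrast. Those arrays are on different scales by construction. Over all probe sets, the deposited values had medians of 1.51 (duodenum), 0.75 (averaged), -1.55 (interaction) and 1.60 (+/b segment). Without both arrays deposited unscaled, which left 1 +/b duodenum array assumed to vary like the others, the medians were 0.31 (duodenum), 0.15 (averaged) and -0.20 (interaction). Leaving out single arrays or rat groups gave medians of 0.19 to 0.27 (duodenum), 0.15 to 0.25 (averaged), -0.14 to -0.04 (interaction), -0.11 to 0.036 (+/b segment) and -0.27 to -0.13 (b/b segment). Using every member probe set, the +/b segment median was -0.075.

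In the +/b segment contrast 1 member, Car9, was called without the filter, after quantile normalization, with array weights and with the rat group as a block, and 20 as deposited. In the b/b segment contrast 3 became 1 with scaling to array medians, 0 as deposited, 9 with array weights, 7 with the rat-group block and 1 to 4 without single arrays. With scaling to array medians the b/b segment median was -0.21 and the interaction median -0.16; the cause was not tested. With the replicate number as a block across genotypes, 0 members were called in the genotype contrasts, and 15, 3 and 14 had an unadjusted p under 0.05 (duodenum, jejunum, averaged), which is 31.9%, 6.38% and 29.8% against 10.7%, 3.25% and 7.62% of all probe sets. The blocks changed no other member call.

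Counts of all called probe sets ranged over the rescaled alternatives from 3 to 15 (duodenum, 7 in the main analysis), 2 to 8 (jejunum, 6), 1 to 12 (averaged, 7), 0 to 2 (interaction, 0), 2 to 86 (+/b segment, 10) and 33 to 642 (b/b segment, 135). As deposited they were 366, 2, 13, 2, 8673 and 40. Probe sets near background, such as Arnt, allow no statement.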
